A study of Homo sapiens with 3 samples.

Results

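The genes described are 10 members of the cellular response to low oxygen, chosen by symbol with earlier results of these data in view, out of 56632 gene IDs in the deposited tables and 13311 genes that reached 1 CPM (counts scaled by library size) in at least 1 library. HIF1A and EPAS1 encode the oxygen-regulated subunits of the hypoxia-inducible factors, and CA9, NDUFA4L2, EGLN3, ADM, ANKRD37, VEGFA, BNIP3 and NDRG1 are genes that low oxygen induces. RNA was sequenced from MCF10Ca1h, an established human breast cancer line of the MCF10 series, in 3 libraries, 1 for each of 3 groups: cells exposed for 72 h to the PADI4 inhibitor GSK484 (GSK484), cells exposed as long to a control compound (CON), and untreated cells (NT). PADI4 converts arginine residues of histones and other proteins to citrulline. The treatment text of the labels calls the control compound GSK107, whereas GSK106 is the name on the table deposited for it. All cells were grown in DMEM/F12 medium with horse serum. The labels give no dose, no oxygen level and no time for NT, and it is not stated whether the libraries came from cells grown side by side. With 1 library per group no difference could be set against replicate spread. Every interval below is a 95% counting interval and covers counting error only.

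Total expected counts were between 70555229 (NT) and 92980847 (CON), and 12985 to 13026 genes reached 1 CPM per library. The basal epithelial markers KRT5, KRT14, KRT17, TP63, ITGA6 and EGFR were all measured, with a summed level of 4152 CPM with GSK484, 3772 with CON and 3865 in NT. Among the leukocyte markers reported here, PTPRC, CD3E and MPO were at 0 in all 3 libraries, and CD68 and LYZ stayed at 4.11 CPM or less. The part of these markers in any result was not tested. Endothelial and fibroblast markers summed to between 1.05 and 7.80 CPM, with DCN and LUM at 0. In bulk RNA, fewer cells of a type and less RNA per cell cannot be told apart.

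Hypoxia-inducible factors are pairs of an alpha subunit, HIF1A or EPAS1 (also called HIF-2 alpha), and the constant partner ARNT. With oxygen present, the EGLN prolyl hydroxylases mark the alpha protein for the VHL ubiquitin ligase and its destruction. When oxygen falls the protein persists and switches on genes of pH control, blood vessel growth, glycolysis and mitochondrial turnover, so that alpha subunit activity is set largely at the protein, which RNA sequencing does not measure. In breast carcinomas CA9 is a widely used marker of poorly oxygenated areas.

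CPM below are expected counts scaled to library size with TMM factors, and folds are ratios of them. TPM, the deposited values per effective transcript length, are used to rank genes against each other. Among the 10 genes, HIF1A had the highest TPM in GSK484 and in NT, and EPAS1 had the highest in CON. NDUFA4L2 had the lowest TPM in all 3 libraries, and the order of CA9, ANKRD37, EGLN3 and NDUFA4L2 at ranks 7 to 10 was the same in each. Neighbours in rank whose counting intervals overlapped were BNIP3 and EPAS1 in GSK484, NDRG1 and ADM in GSK484, and ANKRD37 and EGLN3 in NT.

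**Figure D1:**
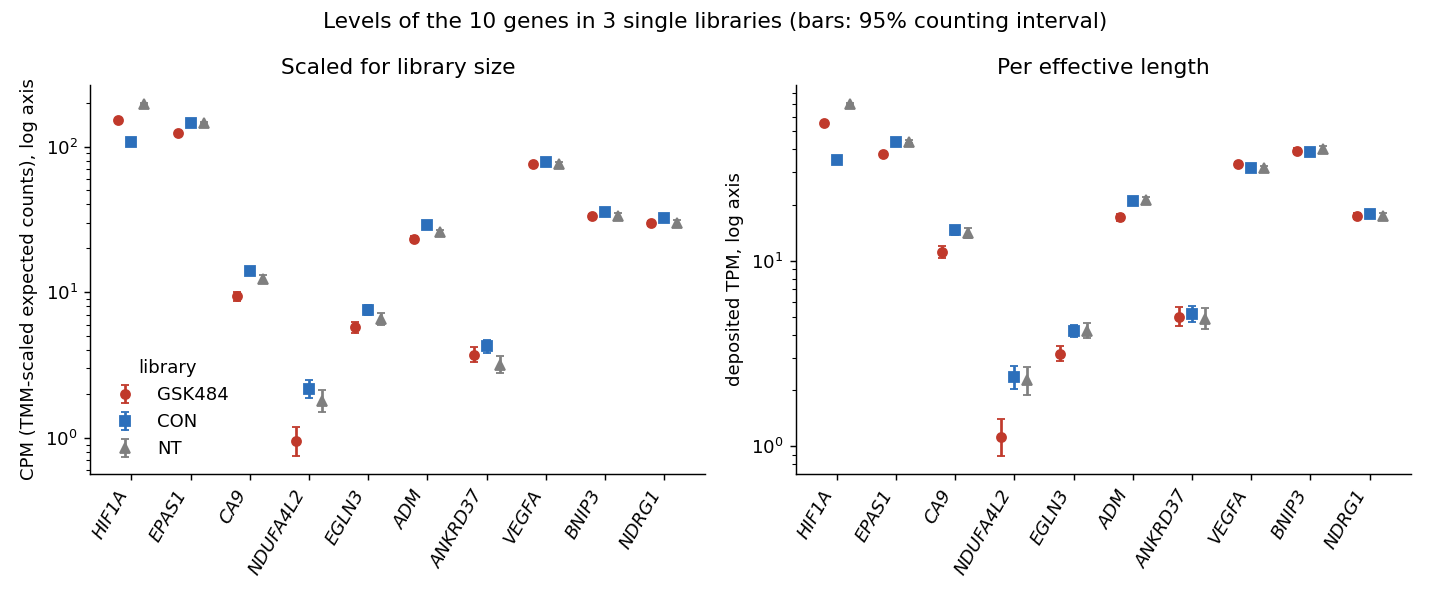
Level of each of the 10 genes in the GSK484, CON and NT libraries (1 library each), as CPM on the left and deposited TPM on the right, both on log axes, with bars for the 95% counting interval. HIF1A lies lowest in CON, while CA9, NDUFA4L2, EGLN3, ADM and EPAS1 lie lowest in GSK484 on both scales.

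HIF1A (ENSG00000100644), the alpha subunit present in most tissues, was at 153 CPM with GSK484, 108 with CON and 197 in NT. Its level thus lay in a different place in each library, with CON lowest and no overlap of counting intervals. GSK484 was 1.42-fold above CON (log2 fold 0.50, interval 0.46 to 0.54) and below NT (log2 fold -0.37, interval -0.40 to -0.33). CON was further below NT, at a log2 fold of -0.87 (interval -0.91 to -0.83). HIF1A counts were not whole, so a part of its reads was shared out between genes. Its transcripts are poor in G and C, at 36.4% of bases, and the libraries differed by base composition. Genes with a GC content from 31.3% to 43.9% had a median log2 fold of 0.10 for GSK484 over CON, -0.13 for GSK484 over NT and -0.22 for CON over NT. After a smooth trend on GC content and length was taken out, the HIF1A log2 folds in the same order were 0.24, -0.16 and -0.39, all still beyond counting error.

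EPAS1 (ENSG00000116016), the alpha subunit known from endothelium and kidney, was at 123 CPM with GSK484, 145 with CON and 145 in NT. CON and NT did not differ beyond counting error (log2 fold 0.01, interval -0.03 to 0.04), and GSK484 lay below both. The log2 fold was -0.24 against CON (interval -0.28 to -0.20) and -0.23 against NT (interval -0.27 to -0.19). Taking out the GC and length trend left these values at -0.24 and -0.23. In the deposited TPM, which were not corrected for GC content, the 2 alpha subunits changed rank between libraries. With the GC and length trend taken out, the log2 fold of CON over NT was -0.39 for HIF1A and 0.02 for EPAS1. Whether the change of rank holds after that correction was not tested. HIF1A was at 55.4 TPM with GSK484, 35.0 with CON and 70.2 in NT, and EPAS1 at 37.6, 43.5 and 43.8 TPM in the same order.

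Among the induced genes, GSK484 was lower than CON beyond counting error for 7 of 8, and with EPAS1 for 8 of all 10, where 27.4% of the 13200 genes compared were lower. HIF1A was the 1 member that was higher, where 26.9% of genes were. A log2 fold of at least 0.32 in size was reached by CA9, NDUFA4L2 and EGLN3 downward, where 4.48% of all genes did, and by HIF1A upward, where 8.98% did. By a rule of size, which asks for a fold of at least 2, an interval that excludes no difference and at least 1 CPM in either library, NDUFA4L2 was called lower, where 0.273% of genes were, and no member was called higher, where 0.189% were. The members were chosen with this comparison known, so these counts describe the choice. Their median log2 fold was -0.21, beside -0.0055 for all genes compared.

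**Figure D2:**
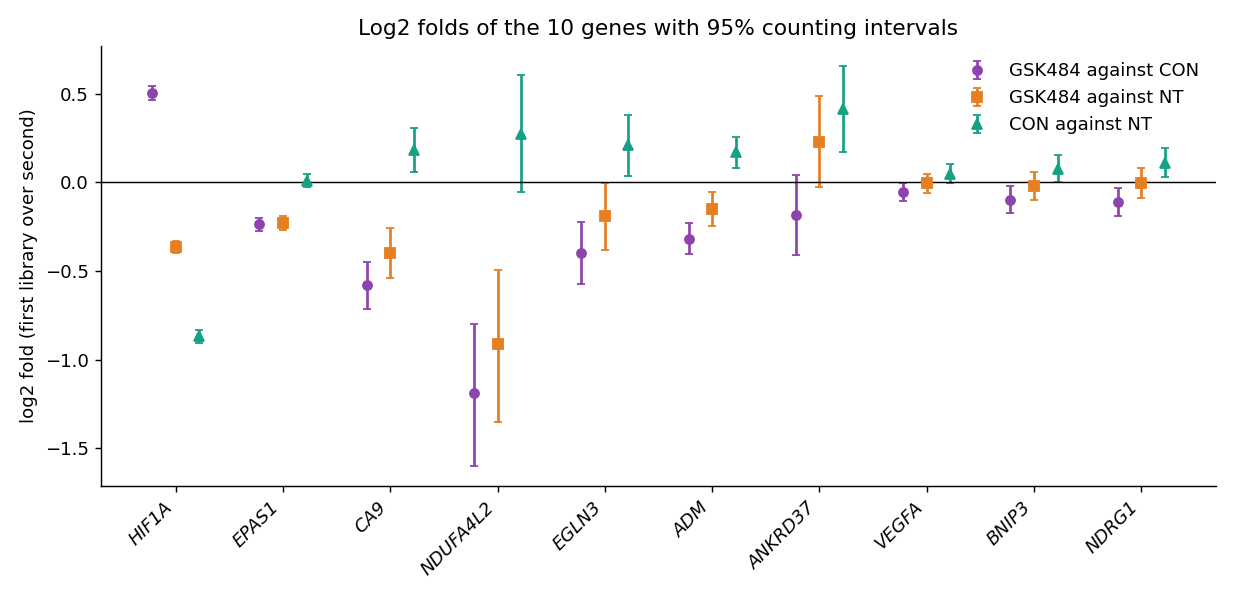
Log2 folds of the 10 genes in the 3 comparisons, from TMM-scaled counts of 1 library each, with 95% counting intervals. NDUFA4L2 has the lowest values against both CON (-1.19) and NT (-0.92), and HIF1A is the 1 gene above 0 against CON.

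NDUFA4L2 (ENSG00000185633), a mitochondrial protein related to the cytochrome oxidase component NDUFA4, showed the largest difference. It had 74 counts with GSK484, 198 with CON and 128 in NT, which is 0.950, 2.17 and 1.80 CPM. The gene is scarce in all libraries, and the GSK484 value lies outside the counting intervals of the other 2. GSK484 was 2.28-fold lower than CON (log2 fold -1.19, interval -1.60 to -0.80) and 1.89-fold lower than NT (log2 fold -0.92, interval -1.35 to -0.50). CON and NT did not differ beyond counting error (log2 fold 0.27, interval -0.06 to 0.60). After the GC and length correction the log2 folds of GSK484 were -1.12 against CON and -1.12 against NT. The related NDUFA4 was at 138 CPM with GSK484, 172 with CON and 141 in NT, with divided reads (its counts were not whole, so some reads were shared out between genes). Its log2 fold was -0.32 against CON (interval -0.36 to -0.29) and -0.04 against NT (interval -0.07 to 0.0040). COX4I2, the cytochrome oxidase subunit that low oxygen induces, had a count of 0 in every library.

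CA9 (ENSG00000107159), a carbonic anhydrase of the cell surface, was at 9.37 CPM with GSK484, 14.0 with CON and 12.4 in NT. The 3 counting intervals were 8.70 to 10.1, 13.2 to 14.8 and 11.5 to 13.2, so GSK484 stood apart from both. The log2 fold was -0.58 against CON (interval -0.71 to -0.45) and -0.40 against NT (interval -0.54 to -0.26). Taking out the GC and length trend gave -0.49 and -0.55. A part of the CA9 reads was divided with other genes, since its counts were not whole. CA12, the other membrane carbonic anhydrase of breast epithelium, was within counting error in both comparisons, at log2 folds of -0.07 and -0.04.

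EGLN3 (ENSG00000129521), the prolyl hydroxylase that HIF itself induces, was at 5.74 CPM with GSK484, 7.57 with CON and 6.55 in NT. It was lower in GSK484 than in CON (log2 fold -0.40, interval -0.58 to -0.23) and barely beyond counting error against NT (log2 fold -0.19, interval -0.38 to -0.0023). The deposited TPM of EGLN3 were 3.16 with GSK484, 4.19 with CON and 4.20 in NT, a larger gap to NT. That scale divides by an estimated transcript length that differed between libraries, at 2304 bases with GSK484, 2140 with CON and 2022 in NT.

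ADM (ENSG00000148926), the precursor of the vasodilator peptide adrenomedullin, was at 23.2 CPM with GSK484, 28.9 with CON and 25.7 in NT. GSK484 was below CON (log2 fold -0.32, interval -0.40 to -0.23) and below NT (log2 fold -0.15, interval -0.24 to -0.06). By TPM the 3 values were 17.2, 21.1 and 21.2. The adrenomedullin receptor gene CALCRL and its partners RAMP1, RAMP2 and RAMP3 stayed at 0.121 CPM or less in all 3 libraries.

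VEGFA (ENSG00000112715), the main growth factor for blood vessels, was nearly level, at 75.4 CPM with GSK484, 78.3 with CON and 75.7 in NT. Its log2 fold was -0.06 against CON (interval -0.11 to -0.0055), which TPM turned to 0.073 where all genes had a median of 0.10, and -0.01 against NT (interval -0.06 to 0.05), or 0.068 by TPM (interval 0.01 to 0.12). BNIP3 (ENSG00000176171), a mitophagy receptor of the outer mitochondrial membrane, was at 33.1 CPM with GSK484, 35.4 with CON and 33.6 in NT. The log2 fold was -0.10 against CON (interval -0.17 to -0.02), or 0.0074 by TPM and 0.031 after the GC and length correction, and -0.02 against NT (interval -0.10 to 0.06), or -0.11 after that correction (interval -0.19 to -0.03). NDRG1 (ENSG00000104419), a stress-responsive cytoplasmic protein, was at 29.8 CPM with GSK484, 32.3 with CON and 29.9 in NT. Its log2 fold was -0.11 against CON (interval -0.19 to -0.03), or -0.06 (interval -0.13 to 0.02) after that correction, and -0.0035 against NT. For these 3 genes the difference from CON was small and hung on the scaling. ANKRD37 (ENSG00000186352), an ankyrin repeat protein, was at 3.73 CPM with GSK484, 4.24 with CON and 3.19 in NT. It was within counting error against CON (log2 fold -0.18, interval -0.41 to 0.04) and against NT (log2 fold 0.23, interval -0.03 to 0.49).

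Promoters of 7 of the 10 genes were found in the RefSeq-based table (build GRCh38.p14), which spans 250 bases before to 50 after each start site. The genes without a window here are NDUFA4L2, VEGFA and NDRG1. The binding core of hypoxia-inducible factors is written ACGTG or GCGTG, and both forms were searched on both strands. The CACGTG sequence reads ACGTG on each strand and so counts as 2 matches. Printed are the windows of CA9 and EGLN3, which were lower in GSK484 than in CON by at least 0.32 on the log2 scale. Those of ADM, BNIP3 and ANKRD37 are printed too. In GSK484, BNIP3 and ANKRD37 were within counting error of NT, but BNIP3 was lower than in CON (log2 fold -0.10). After the GC and length correction BNIP3 was also lower than in NT (-0.11). Capitals mark a match on either strand, and each window runs in the direction of the gene.
CA9 (chr9:35673678-35673977, + strand): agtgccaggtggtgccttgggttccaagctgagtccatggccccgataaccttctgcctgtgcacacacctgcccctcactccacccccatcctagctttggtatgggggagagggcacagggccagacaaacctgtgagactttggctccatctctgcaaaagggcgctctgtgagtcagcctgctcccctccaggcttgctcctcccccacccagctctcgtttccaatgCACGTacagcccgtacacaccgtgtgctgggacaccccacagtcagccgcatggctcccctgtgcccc
EGLN3 (chr14:33951025-33951324, - strand): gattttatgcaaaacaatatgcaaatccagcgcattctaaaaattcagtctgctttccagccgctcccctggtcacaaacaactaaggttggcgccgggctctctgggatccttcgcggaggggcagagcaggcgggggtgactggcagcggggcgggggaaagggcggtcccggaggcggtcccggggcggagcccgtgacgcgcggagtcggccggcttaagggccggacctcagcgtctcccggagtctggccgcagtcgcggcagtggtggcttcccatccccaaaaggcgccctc
ADM (chr11:10304823-10305122, + strand): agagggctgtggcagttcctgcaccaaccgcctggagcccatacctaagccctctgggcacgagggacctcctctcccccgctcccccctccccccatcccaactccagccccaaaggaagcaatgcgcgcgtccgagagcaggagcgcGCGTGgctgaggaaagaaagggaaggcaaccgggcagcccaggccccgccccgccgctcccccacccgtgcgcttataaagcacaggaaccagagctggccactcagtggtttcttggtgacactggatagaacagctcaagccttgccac
ANKRD37 (chr4:185396591-185396890, + strand): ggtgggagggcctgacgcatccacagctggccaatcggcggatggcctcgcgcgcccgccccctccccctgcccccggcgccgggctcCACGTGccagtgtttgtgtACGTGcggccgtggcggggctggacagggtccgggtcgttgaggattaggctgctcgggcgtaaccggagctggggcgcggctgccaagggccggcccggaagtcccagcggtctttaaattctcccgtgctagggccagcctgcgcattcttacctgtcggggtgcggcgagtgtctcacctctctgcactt
BNIP3 (chr10:131981874-131982173, - strand): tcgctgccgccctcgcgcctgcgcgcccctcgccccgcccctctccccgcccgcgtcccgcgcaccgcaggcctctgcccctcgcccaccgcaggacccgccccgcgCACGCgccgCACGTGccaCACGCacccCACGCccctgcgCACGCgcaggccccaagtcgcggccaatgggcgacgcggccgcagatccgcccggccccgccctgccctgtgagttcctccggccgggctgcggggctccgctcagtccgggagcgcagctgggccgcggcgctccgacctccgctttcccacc

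CA9 had 1 match, an ACGTG on the reverse strand whose first printed base is 18 bases before the start site. ADM had 1 GCGTG, EGLN3 had neither form, ANKRD37 had 3 ACGTG matches and BNIP3 had 2 ACGTG and 4 GCGTG matches. EPAS1 and the first of 2 HIF1A start sites had 1 GCGTG each. Of 35116 promoters in the table, 21.4% held ACGTG, 36.5% held GCGTG and 48.4% held at least 1 of them. The windows also differed in base content, with G and C at 80.7% of bases for BNIP3 and 62% for CA9. Whether the number of matches goes with the folds was not tested, and NDUFA4L2, with the lowest fold, had no window. A match is a description of letters in this window and not a measured binding site.

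GSK484 against NT sets the inhibitor library against untreated cells. It shares the GSK484 library with the comparison against CON, so the values stand side by side as 2 readings of 1 library. Of the 10 genes, 6 were lower beyond counting error, where 29.8% of 13208 genes were, and 0 were higher, where 27.1% were. Lower by at least 0.32 on the log2 scale were HIF1A, CA9 and NDUFA4L2, where 7.46% of genes were, 0 were higher by as much, where 5.07% were, and 0 members met the rule of size in either direction, where 0.28% were lower and 0.257% higher. The median log2 fold of the members was -0.17, beside -0.0042 for all genes. EPAS1, CA9, NDUFA4L2, EGLN3 and ADM were lower than in NT, while VEGFA, BNIP3, NDRG1 and ANKRD37 were within counting error.

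**Figure D3:**
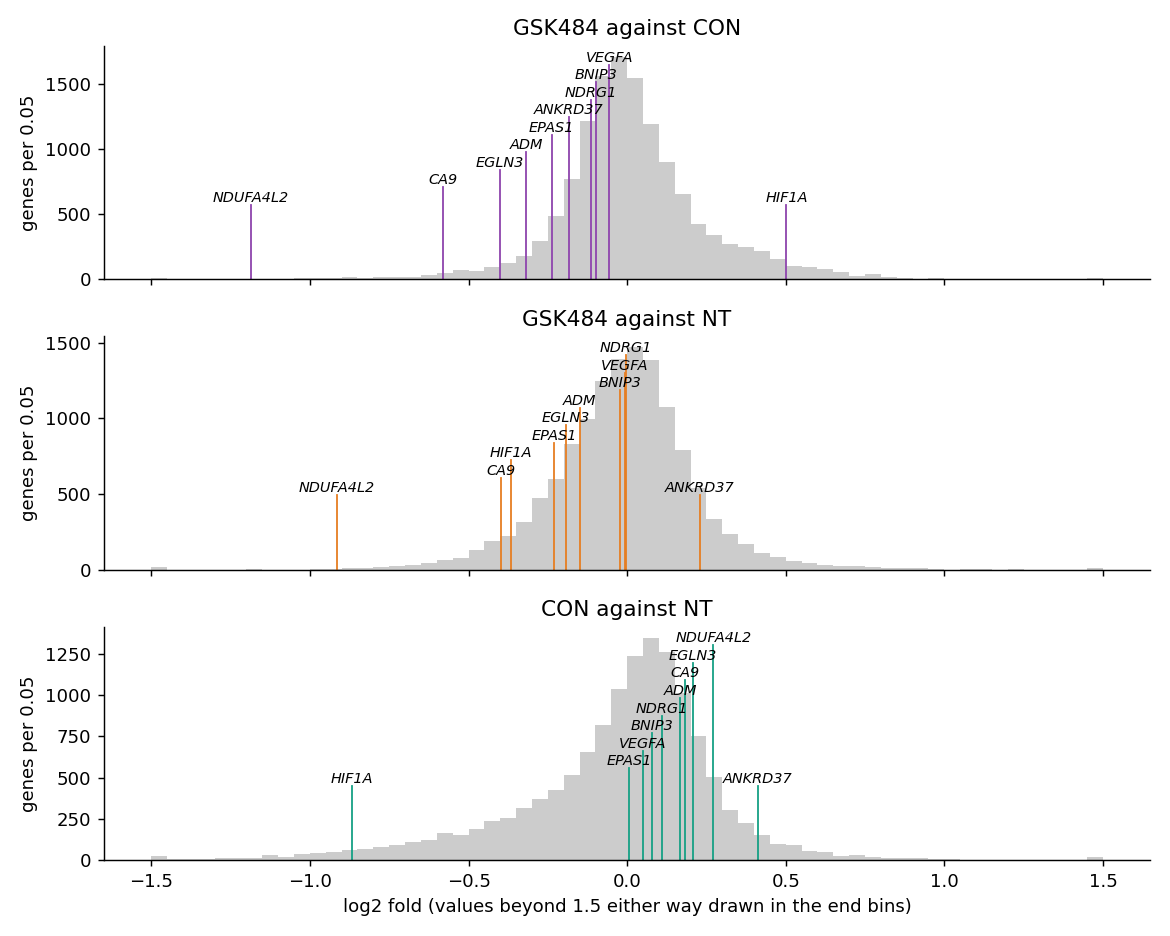
Number of genes by log2 fold, in steps of 0.05, for the 3 comparisons of single libraries, with a line at the log2 fold of each of the 10 genes (line heights only separate the names). NDUFA4L2 lies in the lower tail in both GSK484 comparisons, and HIF1A in the lower tail of CON against NT.

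CON against NT sets the control compound library against untreated cells. Here 6 of the 10 genes were higher beyond counting error, where 35.3% of 13219 genes were, and HIF1A was the 1 that was lower, where 29.6% were. The higher genes were CA9 (log2 fold 0.18), EGLN3 (0.21), ADM (0.17), ANKRD37 (0.41), BNIP3 (0.08) and NDRG1 (0.11). ANKRD37 alone was higher by at least 0.32 on the log2 scale, where 6.87% of genes were, and HIF1A alone lower, where 14.6% were. By the rule of size 0 members were lower, where 1.35% of genes were, and 0 higher, where 0.325% were. The members' median log2 fold was 0.14, beside 0.03 for all genes. After the GC and length correction that median was 0.01, ANKRD37 was at 0.42 (interval 0.18 to 0.67) and BNIP3 at -0.13. By deposited TPM ANKRD37 was within counting error between CON and NT, at 0.083 (interval -0.16 to 0.33), and likewise at 0.17 (interval -0.07 to 0.41) once TPM was centred on the median of all genes. After the GC and length correction, CA9, EGLN3, ADM and NDRG1 were within counting error between CON and NT, at log2 folds of -0.04, 0.15, 0.01 and 0.02. NDUFA4L2, VEGFA and EPAS1 were within counting error before it and remained so, at 0.01, 0.0076 and 0.02. With the same correction GSK484 was below NT for CA9, NDUFA4L2, ADM, EGLN3 and EPAS1, at -0.55, -1.12, -0.26, -0.21 and -0.23. NDRG1 and VEGFA were then within counting error of NT, at -0.05 and -0.04.

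**Figure D4:**
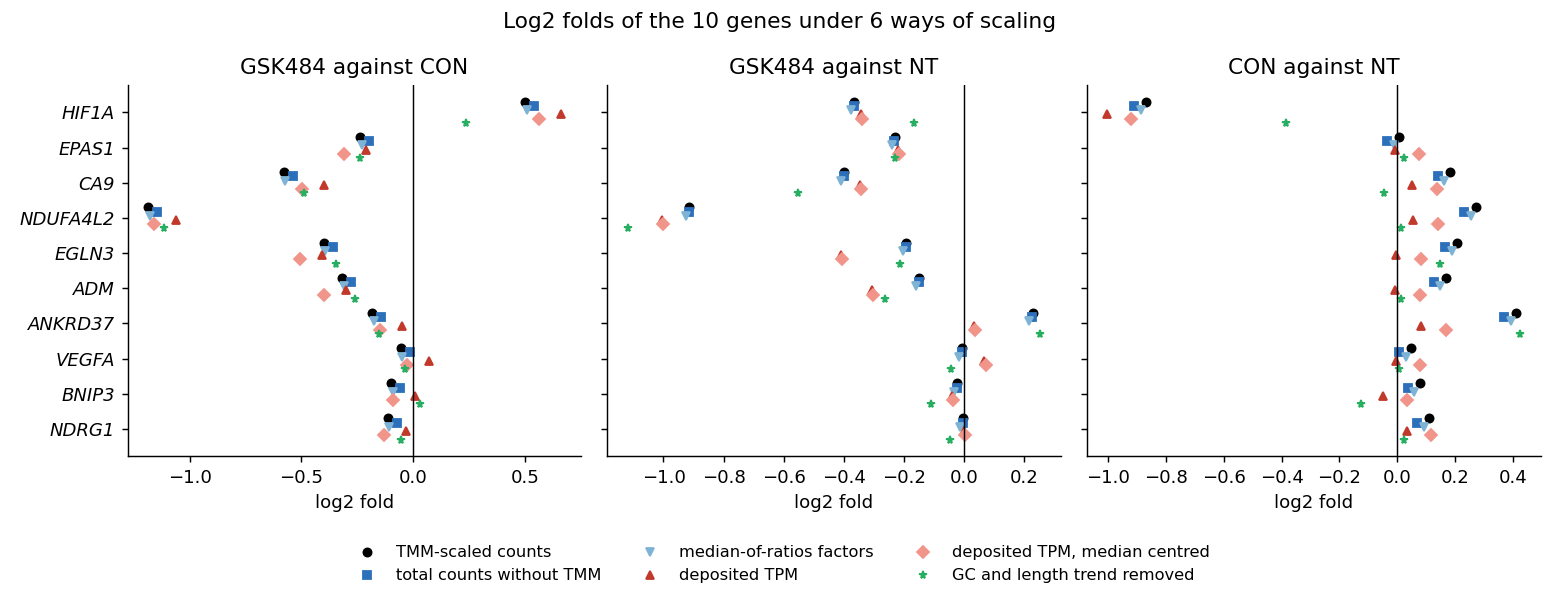
Log2 folds of the 10 genes for each comparison of single libraries under 6 ways of scaling, shown by symbol and colour. CA9, NDUFA4L2, EGLN3, ADM and EPAS1 lie below 0 in both GSK484 comparisons under all 6. CON against NT values besides HIF1A reach at most 0.083 under TPM as deposited, where all genes had a median of -0.084.

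Summed over the 8 induced genes, the level was 181 CPM with GSK484, 203 with CON and 189 in NT. In TPM the same sums were 127, 136 and 136. VEGFA and BNIP3, which changed little, make up much of each sum. Estimated mean transcript length, which reflects the mix of isoforms, spread between libraries by 0.114% for BNIP3 and by up to 13.9% for EGLN3. For VEGFA, whose isoforms differ in their heparin-binding exons, it was 2827 bases with GSK484, 2861 with CON and 2989 in NT.

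The partner and sensor genes of the pathway did not move in 1 direction. ARNT, the constant partner of both alpha subunits, was at 18.8 CPM with GSK484, 20.5 with CON and 18.5 in NT (a difference of -0.13 on the log2 scale from CON and 0.03 from NT). SIM2, a related factor, had a log2 fold of -0.19 against CON, and ARNT2 was within counting error at -0.09. HIF3A and SIM1 had a count of 0 in all libraries, which allows up to 3 counts, or 0.0385 CPM with GSK484, 0.0329 with CON and 0.0421 in NT. Of 12 oxygen sensor and degradation genes other than EGLN3, 5 were lower and 4 higher in GSK484 than in CON (median log2 fold -0.02). Over all genes 27.4% were lower and 26.9% higher. After the GC and length correction 3 of the 12 were lower and 5 higher (median 0.02). Against NT 3 were lower and 3 higher, where 29.8% of all genes were lower and 27.1% higher. EGLN1, the main hydroxylase of HIF, had log2 folds of -0.13 against CON and -0.17 against NT, and EGLN2 of 0.05 and 0.13. HIF1AN, the asparagine hydroxylase of HIF, was within counting error, at 0.01 and -0.06.

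VHL, the substrate receptor of the ubiquitin ligase, was at 20.3 CPM with GSK484, 19.2 with CON and 33.6 in NT. Both 72 h libraries were below NT, with log2 folds of -0.73 for GSK484 (interval -0.82 to -0.63) and -0.81 for CON (interval -0.90 to -0.72), and they did not differ from each other beyond counting error (0.08, interval -0.02 to 0.18). After the GC and length correction the folds against NT were -0.71 and -0.80. CUL2, the scaffold of the same ligase, was at 36.3 CPM with GSK484, 28.1 with CON and 41.2 in NT, and its log2 fold against CON was 0.37, or 0.23 after that correction. ELOB (-0.16) and P4HTM (-0.13) were lower against CON and SIAH1 (0.16) was higher. After that correction these were 0.02, -0.10 and -0.02. HIF coregulators had 6 of 10 genes higher and 2 lower against CON (median 0.05), where 26.9% of all genes were higher and 27.4% lower. With that correction 4 were higher and 2 lower. SIRT1 (0.26) and SIRT6 (0.14), which are deacetylases, were among the higher ones, and ING4 (-0.25) and the HIF inhibitor CITED2 (-0.24) were the lower ones.

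The wider lists of HIF targets are described without the 10 members. Of 43 measured targets outside glycolysis, 16 were lower and 9 higher in GSK484 than in CON (median log2 fold -0.07), where 27.4% of all genes were lower and 26.9% higher. The count hung on the scaling, with 23 lower and 6 higher (median -0.10) after the GC and length correction and 15 lower and 13 higher (median -0.03) by TPM centred on the median of all genes. Against NT, 23 were lower and 6 higher (median -0.09), where 29.8% of all genes were lower and 27.1% higher, and 19 were lower and 8 higher (median -0.04) after that correction. TMEM45A, a transmembrane protein, had a log2 fold of -0.46 against CON and -0.53 against NT, and VLDLR, a lipoprotein receptor, of -0.39 and -0.44. BHLHE41, a repressor of the circadian system whose reads were divided, had -0.43 and -0.15. HMOX1, the haem-degrading oxygenase, was higher than in CON (0.38) and within counting error of NT (0.15, interval -0.08 to 0.38). Of 23 glycolysis and glucose uptake genes, 16 were lower and 2 higher against CON (median -0.09), where 27.4% of all genes were lower and 26.9% higher. After that correction 16 were lower and 5 higher (median -0.07). Most folds were small: 1 of the 23 was lower than CON by at least 0.32, where 4.48% of all genes were, and 0 were higher by as much, where 8.98% were. Against NT, 12 were lower and 7 higher (median -0.03), where 29.8% of all genes were lower and 27.1% higher. That split became 19 lower and 1 higher after that correction (median -0.10), and 0 differed from NT by at least 0.32 with or without it. PDK3, a kinase that holds back pyruvate entry into mitochondria, had log2 folds of -0.43 and -0.23. ALDOC, an aldolase, had -0.26 and -0.01, PFKFB4 had -0.26 and -0.08, and PFKP, a phosphofructokinase, had -0.24 and -0.23. No gene of either list met the rule of size in any of the 3 comparisons.

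**Figure D5:**
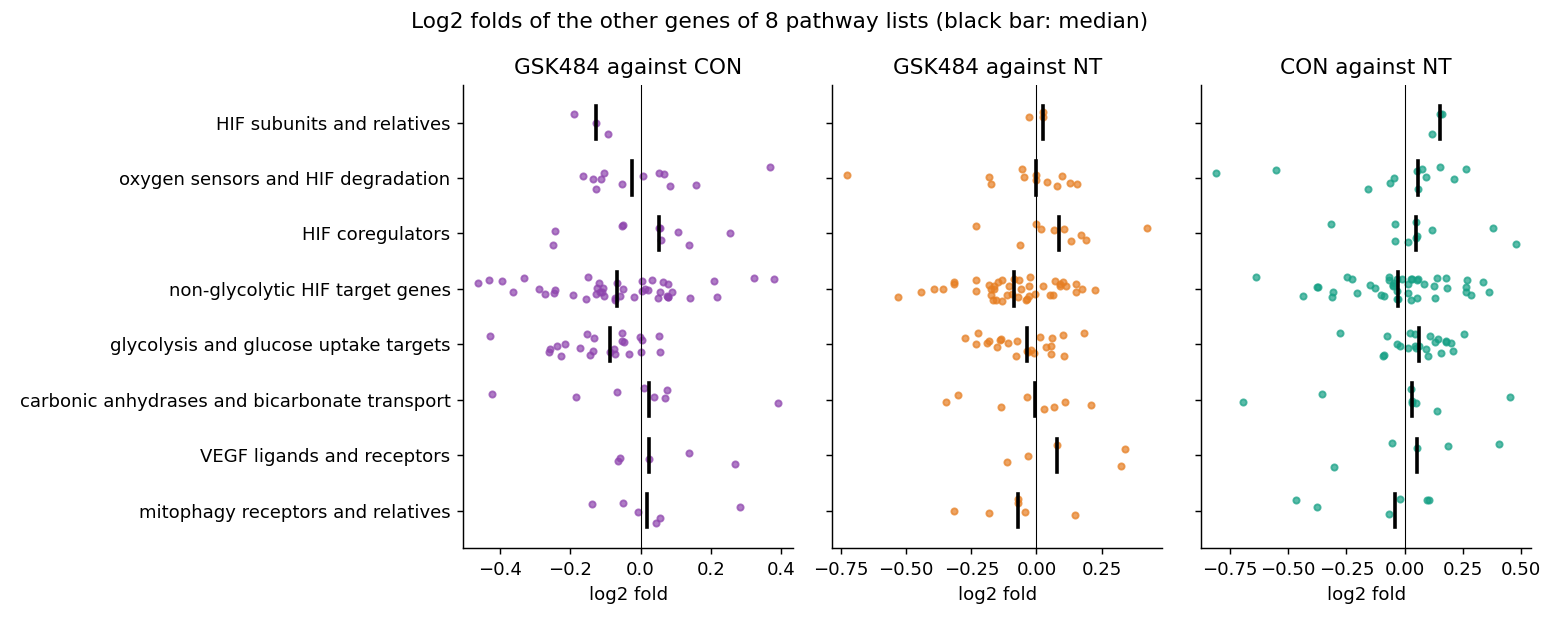
Log2 folds of genes in 8 pathway lists, without the 10 members, for each comparison of single libraries. Each point is 1 gene at 1 CPM or more, and black bars mark the list medians, which lie between -0.13 and 0.15.

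Relatives of the members were measured unevenly. CA2 (-0.18), a cytosolic carbonic anhydrase, and CA11 (-0.42), a catalytically inactive relative, were lower in GSK484 than in CON, and the bicarbonate transporter SLC4A7 was higher (0.39, or 0.11 after that correction). NRP1, a VEGF co-receptor, was at 70.0 CPM with GSK484, 58.1 with CON and 71.7 in NT (0.27 on the log2 scale against CON and -0.03 against NT). VEGFB was at 0.34 against NT and -0.06 against CON. After the GC and length correction, 0 genes of the VEGF list were higher than in NT beyond counting error by at least 0.32. The VEGF receptor genes FLT1, KDR and FLT4 stayed at 0.0257 CPM or less. BNIP3L, the closest relative of BNIP3, was within counting error of CON (0.06) and lower than NT (-0.32), while BNIP2 was higher than in CON (0.28). PINK1 (-0.14) was lower and FKBP8 (0.05) higher than in CON. NDRG2 (-0.36, divided reads) and NDRG3 (-0.08) were lower than in CON, and NDRG4 was within counting error (-0.15). COX7A2 (-0.24) and COX4I1 (-0.07) were lower than in CON. After the GC and length correction, 2 of NDUFA4, COX7A2 and COX4I1 were lower than in CON and 1 was higher. No NDRG relative or carbonic anhydrase list gene besides the members was then lower than in CON by at least 0.32.

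The profile over 3 libraries, as log2 CPM centred on each gene's mean, was compared with 11455 protein-coding genes by Euclidean distance. Nearest to NDUFA4L2 were LOXL4 (distance 0.13), UGT1A1 (0.17) and IFIT2 (0.18), nearest to CA9 were MT-CYB (0.0010), MT-ATP8 (0.0048) and SUSD5 (0.011), and nearest to EGLN3 were PCDHB2 (0.012), EIF1B (0.013) and DGAT1 (0.018). Likeness over 3 libraries is a description of these libraries. Counts were whole in all 3 libraries, and so not divided with other genes, for 6 of the 10 members: EPAS1, NDUFA4L2, EGLN3, ADM, VEGFA and NDRG1. Of the loci that could share reads with members, BNIP3P1, a BNIP3 pseudogene, was at 0.340 CPM or less, and HIF1A-AS1 at 0.112 CPM or less.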

How the data were processed

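Extraction used TRIzol and library preparation a kit for stranded total RNA, sequenced as pairs of 125 bp reads, per the labels' protocols. Per the submitters' processing notes, RSEM and hg19 were used; its version, the aligner, the annotation release and the strand setting were not given in the sources used here. The authors deposited, per the file headers, expected counts (estimated counts per gene, not normalized), TPM (per effective length, scaled to the same total), FPKM values, which were not used, and other columns that give isoform-weighted lengths in bases. Expected counts were rounded to whole numbers and scaled with TMM factors of 1.01 with GSK484, 0.98 with CON and 1.01 in NT (edgeR 4.0.16, R 4.3.3). Log2 folds used a prior count of 0.5, and intervals were exact conditional binomial for folds and exact Poisson for levels. A fold was taken for genes with at least 1 CPM in either library. No test was possible with 1 library per group, and PCR copies were not separable from molecules. Symbols came from a gene name table by gene ID. GC content came from the longest GENCODE 29 transcript, known for 97.2% of genes, and the trend was fitted with splines to 8734 to 8858 protein-coding genes at 10 CPM or more. TPM folds used a pseudocount of 0.01. Fold and interval code was tested on simulated data. Counts were called whole within 0.005. One cell type marker is not reported here. The members, the 12 pathway lists and the rule of size were chosen with earlier results of these data known. Named beyond the members were at most 4 genes per list with the largest folds for GSK484 against CON beyond counting error, and HIF subunits, sensors and relatives of members whatever their value; CA12, BNIP3L and the receptor genes were named as relatives of members.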

Additional observations from a re-analysis of the deposited data

How the results depend on the processing

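A prior count of 2 and no CPM minimum left all counts of members as reported and moved no median of theirs by as much as 0.01. Median-of-ratios factors put VEGFA within counting error for GSK484 against CON, leaving 7 lower, and BNIP3 for CON against NT, leaving 5 higher, with medians of -0.20 for GSK484 against CON, -0.18 for GSK484 against NT and 0.12 for CON against NT. Total counts without TMM gave 5 members lower for GSK484 against CON (median log2 fold -0.17) and 3 higher for CON against NT. With TPM as deposited, 5 were lower and 2 higher for GSK484 against CON (median -0.13, beside 0.099 for all genes). For GSK484 against NT 1 was higher and 1 met the rule of size downward. For CON against NT 0 were higher and 1 met the rule of size downward. The median of that comparison turned to -0.0042, beside -0.084 for all genes. TPM centred on the median of all genes gave 7 lower for GSK484 against CON, 4 higher for CON against NT (median 0.080), and for GSK484 against NT a median of -0.26, with VEGFA higher and 1 member lower by the rule of size. After the GC and length correction, 5 were lower for GSK484 against CON, 7 were lower and 1 met the rule of size downward for GSK484 against NT, and for CON against NT 2 were lower and 1 higher (median 0.012). A minimum of 5 CPM removed NDUFA4L2 and ANKRD37. The call by the rule of size against CON was thereby lost, leaving 0, as was the member higher by at least 0.32 for CON against NT, whose median became 0.094. Signs turned against CON for VEGFA (0.073) and BNIP3 (0.0074) under TPM and for BNIP3 (0.031) after that correction. For GSK484 against NT they turned for VEGFA (0.068) and NDRG1 (0.00083) under TPM, and for both with TPM centred (0.072 and 0.0047). For CON against NT they turned under TPM for EGLN3 (-0.0034), ADM (-0.0068), BNIP3 (-0.049), VEGFA (-0.0050) and EPAS1 (-0.0083). All genes had a median of -0.084 there, and with TPM centred on it these genes had positive log2 folds. Signs turned for EPAS1 also without TMM (-0.034) and with median-of-ratios factors (-0.011), and for CA9 (-0.045) and BNIP3 (-0.13) after that correction. The cause was not tested. Shares over all genes were counted for the TMM-scaled values only. No paired analysis was possible because each group holds 1 library. Leaving out a library was likewise not possible. Counting intervals do not cover the spread between replicates, which was not measured.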
